A study of Mus musculus with 8 samples.

Results

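The comparison described here set the Type I day 5 blastoid library against the Type III day 5 blastoid library, which are 2 of the 8 libraries of the series and were taken from it by their labels alone. A blastoid is an aggregate grown from stem cells as a model of the blastocyst, the embryo before implantation. Both libraries came from blastoids that grew from the E14 line of mouse embryonic stem cells (ESC) after its conversion to expanded potential stem cells (EPSC), and both carry the label T09, short for T0901317, a drug that activates the liver X receptors (LXR). Blastoids grew for a first day in a medium with FGF4, heparin, CHIR99021 (an inhibitor of the kinase GSK3) and Y-27632 (an inhibitor of the kinase ROCK), and afterwards with FGF4, heparin, CHIR99021, BMP4 and A83-01 (an inhibitor of the Activin and Nodal receptors), and were picked by hand on day 5. The labels give neither the criteria for Type I and Type III nor the number of blastoids in each library, and list no T09 in the blastoid media. The other 6 libraries were T09-treated EPSC and EPSC, day 2 blastoids labelled siNr1h2, for a knockdown of the LXR gene Nr1h2, or siNT, its siRNA control, and T09-treated ESC and ESC. T09 was on the treated EPSC and ESC for 3 days, and the siRNA aggregates were collected 48 hours after transfection. ESC and EPSC media both held LIF, CHIR99021 and PD0325901 (a MEK inhibitor), to which EPSC medium added inhibitors of JNK, p38, Src kinases and tankyrase. All 6 libraries serve below to place the levels of both blastoid types.

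A blastocyst holds 3 lineages. The epiblast, which gives rise to the body, is marked by Pou5f1, Nanog and Sox2. The primitive endoderm, marked by Gata4, Gata6 and Sox17, lays down basement membrane and forms the yolk sac, and the trophectoderm, marked by Cdx2 and the keratins Krt8 and Krt18, forms the outer epithelium and the placenta. LXR alpha and LXR beta, the products of Nr1h3 and Nr1h2, are nuclear receptors that sense oxysterols, pair with the retinoid X receptor on DNA and switch on genes for cholesterol export and fatty acid synthesis. In bulk RNA of whole blastoids, fewer cells of a type and less RNA per cell cannot be told apart.

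Several promoters are shown first because the genes behind them are reported below. Abca1, Srebf1 and Fasn are genes known to respond to LXR. Abca1 and Srebf1 were called higher in Type I, and Fasn lay just under 2-fold. Col4a1 and Col4a2 are basement membrane collagens that were called higher in Type I, though not with ratios centred by transcript length. Each window runs from 250 bases before the transcription start to 50 bases after it, as given by RefSeq for the mouse build GRCm38.p6. The windows of Abca1 (chr4:53159846-53160145), Srebf1 (chr11:60210422-60210721), Fasn (chr11:120824498-120824797) and Col4a1 (chr8:11312777-11313076) are on the minus strand, and that of Col4a2 (chr8:11312555-11312854) is on the plus strand. Capitals in the first group mark GGGTTA, any 4 bases and CGGTCA, read on the opposite strand, a pattern with the layout of the direct repeats that LXR binds.
Abca1: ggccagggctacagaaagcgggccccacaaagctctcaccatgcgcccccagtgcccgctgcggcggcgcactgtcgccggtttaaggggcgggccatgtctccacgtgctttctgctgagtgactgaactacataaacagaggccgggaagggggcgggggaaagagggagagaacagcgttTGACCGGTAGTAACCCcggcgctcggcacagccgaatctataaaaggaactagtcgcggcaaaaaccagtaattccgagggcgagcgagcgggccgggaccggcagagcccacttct
Srebf1: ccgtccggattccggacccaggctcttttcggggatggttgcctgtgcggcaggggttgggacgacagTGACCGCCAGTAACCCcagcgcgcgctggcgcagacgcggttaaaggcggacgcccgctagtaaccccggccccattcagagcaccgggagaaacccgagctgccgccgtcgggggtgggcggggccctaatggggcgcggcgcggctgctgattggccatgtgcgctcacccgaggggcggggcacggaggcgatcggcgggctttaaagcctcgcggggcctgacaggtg
Fasn: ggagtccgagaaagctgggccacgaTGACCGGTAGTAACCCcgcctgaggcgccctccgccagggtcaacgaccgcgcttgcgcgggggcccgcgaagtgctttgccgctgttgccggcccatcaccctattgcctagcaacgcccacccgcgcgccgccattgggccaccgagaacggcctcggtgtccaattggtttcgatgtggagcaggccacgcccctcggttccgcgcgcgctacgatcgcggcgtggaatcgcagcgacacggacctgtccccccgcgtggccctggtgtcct
The pattern was written down after these windows had been read, so its presence in them was fixed in advance and is no support. It was found in 3 of the 32851 promoter windows on either strand (0.00913%), those of Abca1, Srebf1 and Fasn. It reads GGGTTACTACCGGTCA in Abca1 and in Fasn and GGGTTACTGGCGGTCA in Srebf1, and it lies 67 to 52 bases before the start of Abca1, 182 to 167 bases before that of Srebf1 and 225 to 210 bases before that of Fasn. The textbook repeat, AGGTCA set 4 bases apart from a second AGGTCA on either strand, was found in 5 windows (0.0152%). Of the 18 LXR targets tested, 12 had a window in the table, and 2 of these, Abca1 and Srebf1, carried the pattern.

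The collagen pair is shown because Col4a1 and Col4a2 stand head to head and their windows share 78 bases. Here capitals mark GGGCGG and CCAAT on either strand.
Col4a1: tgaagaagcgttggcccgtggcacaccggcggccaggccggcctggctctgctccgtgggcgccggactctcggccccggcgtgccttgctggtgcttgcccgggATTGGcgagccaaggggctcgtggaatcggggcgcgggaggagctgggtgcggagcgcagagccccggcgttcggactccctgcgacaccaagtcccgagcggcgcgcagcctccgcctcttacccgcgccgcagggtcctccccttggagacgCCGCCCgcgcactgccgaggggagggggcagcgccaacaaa
Col4a2: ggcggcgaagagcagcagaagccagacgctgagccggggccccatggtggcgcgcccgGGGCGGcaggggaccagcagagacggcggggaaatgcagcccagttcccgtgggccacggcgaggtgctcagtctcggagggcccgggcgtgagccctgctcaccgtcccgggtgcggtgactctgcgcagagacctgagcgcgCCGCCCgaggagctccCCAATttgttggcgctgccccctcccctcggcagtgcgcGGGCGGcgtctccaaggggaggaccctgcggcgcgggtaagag
No marked stretch overlaps another within a window. GGGCGG was in 35.7% and CCAAT in 37.4% of all promoter windows of this length, so neither sets these promoters apart, and a match is a description of letters only.

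Depth was similar on both sides, with 37181849 counts in Type I and 33938785 in Type III, which puts the detection floor of 3 counts at 0.0836 CPM in Type I and 0.0913 CPM in Type III. Genes with at least 1 count numbered 16488 in Type I and 17607 in Type III. Levels are CPM, counts scaled with TMM factors to a library total of 1000000, and are compared between libraries, never between genes. With 1 library a side there was no test, so ratios are given on the log2 scale, Type I over Type III, with a 95% exact interval that covers counting error only. A gene was called when it differed at least 2-fold, its interval lay wholly on that side of 1 and at least 20 counts were present in Type I or in Type III. Of 13907 genes tested, 1068 (7.68%) were called, 268 higher (1.93%) and 800 lower (5.75%) in Type I, around a median log2 ratio of 0.01. Most were sparsely counted, 66.8% of those called having under 100 counts in both libraries, and among genes with at least 100 counts 79 were called higher and 276 lower. By the same rule 40.8% of genes were called for Type I over T09-treated EPSC and 37.7% for Type III over T09-treated EPSC, against 3.66% for siNr1h2 over siNT. Ratios also moved with transcript length, and values centred by it are given beside many of the gene groups it moved. In the library labelled Type III, Abca1, Abcg1, Srebf1 and Scd2 stood near the level of libraries without T09, although its label names T09-treated EPSC as the source, while Mylip and Lpcat3 stood near that of T09-treated EPSC. The cause was not tested.

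**Figure D1:**
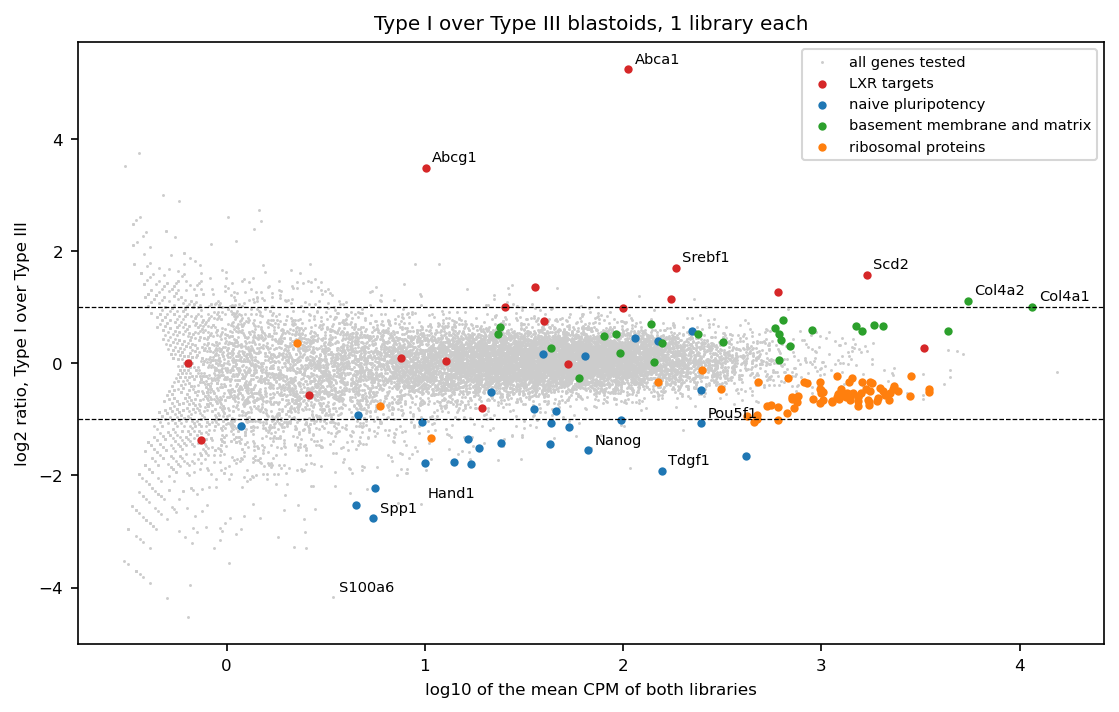
Log2 ratio of Type I over Type III (y axis) against log10 of the mean CPM of both libraries (x axis), 1 point per gene tested, with dashed lines at 2-fold. Abca1 lies at 5.25 and Abcg1 at 3.49, far above the other LXR targets (red), while most naive pluripotency genes (blue) lie below 0, the basement membrane genes (green) lie between -0.26 and 1.11 and the ribosomal protein genes (orange) form a band around -0.57.

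Type I and Type III differed first in the genes that LXR switches on, although their labels name the same T09 treatment. Abca1, the transporter that exports cholesterol to lipoproteins, was counted at 207 CPM in Type I against 5.38 CPM in Type III. The T09-treated EPSC library held 211 CPM and untreated EPSC 18.3 CPM, the siNr1h2 and siNT day 2 blastoids held 5.07 and 3.40 CPM, and T09-treated ESC held 339.9 CPM against 51.0 CPM in ESC. Type I thus lay at the level of the T09-treated cells and Type III near the day 2 blastoids. The ratio rested on 7419 against 177 counts and was 38.4-fold (log2 5.25, interval 5.05 to 5.49), the largest among the LXR targets. Abcg1, a transporter for cholesterol export to high-density lipoprotein, stood at 18.7 CPM in Type I and 1.61 CPM in Type III (log2 3.49, interval 3.13 to 3.97). Its level was 60.2 CPM in T09-treated EPSC and 1.86 CPM in EPSC, so Type III was close to untreated EPSC and Type I lay between the treated and untreated cells.

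Srebf1, whose protein SREBP1 switches on genes of fatty acid synthesis, stood at 283 CPM in Type I and 86.8 CPM in Type III (log2 1.71, interval 1.65 to 1.77). T09-treated EPSC held 289 CPM of it against 90.9 CPM in EPSC, and T09-treated ESC 284 CPM against 96.9 CPM in ESC. Both blastoid levels therefore fell beside those of the cultures, Type I with the treated and Type III with the untreated. Scd2, a stearoyl-CoA desaturase that puts the first double bond into saturated fatty acids, followed the same order, with 2546 CPM in Type I against 852 CPM in Type III, beside 2108 CPM in T09-treated EPSC and 711 CPM in EPSC (log2 1.58, interval 1.56 to 1.60). Its relative Scd1 had 850.3 CPM in Type I and 353 CPM in Type III (log2 1.27, interval 1.24 to 1.30). Type III was here above untreated EPSC, at 155 CPM.

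In total 8 of the 18 LXR targets tested were called higher and 1 lower, with a median log2 ratio of 0.87 against 0.01 over all genes. The remaining called members were Mylip, which encodes a ubiquitin ligase, with 52.0 CPM in Type I and 20.2 CPM in Type III (log2 1.36), Lpcat3, which remodels phospholipids with polyunsaturated chains (242 CPM in Type I and 109 CPM in Type III, log2 1.15), and the lipoprotein lipase gene Lpl (34.0 CPM in Type I and 16.9 CPM in Type III, log2 1.00, interval 0.86 to 1.15). For Mylip, T09-treated EPSC and EPSC held 19.5 and 1.83 CPM, and for Lpcat3 106 and 52.8 CPM, so for both genes Type III was at the level of the treated cells and Type I above it. Lpl stood at 55.5 CPM in T09-treated EPSC and 50.4 CPM in EPSC, above both blastoid types, and its call was lost with library totals, upper-quartile factors, a prior count of 10 or ratios centred by transcript length (0.95 to 1.00). Just under the threshold were the ubiquitin ligase gene Rnf145 (132 CPM in Type I and 67.0 CPM in Type III, log2 0.98) and Pltp, the phospholipid transfer protein, at 0.75. Smpdl3a, a phosphodiesterase of the acid sphingomyelinase family that is an LXR target in human cells, was the lower one, on 14 counts in Type I and 36 in Type III (log2 -1.36, interval -2.49 to -0.56). The receptors themselves were level. Nr1h2 had 52.6 CPM in Type I and 52.7 CPM in Type III, and Nr1h3 had 0.641 CPM in Type I and 0.639 CPM in Type III, on 23 and 21 counts. Of the 24 listed targets, 6 had under 20 counts in both libraries and were not tested, among them Abcg5, Abcg8 and Cyp7a1.

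**Figure D2:**
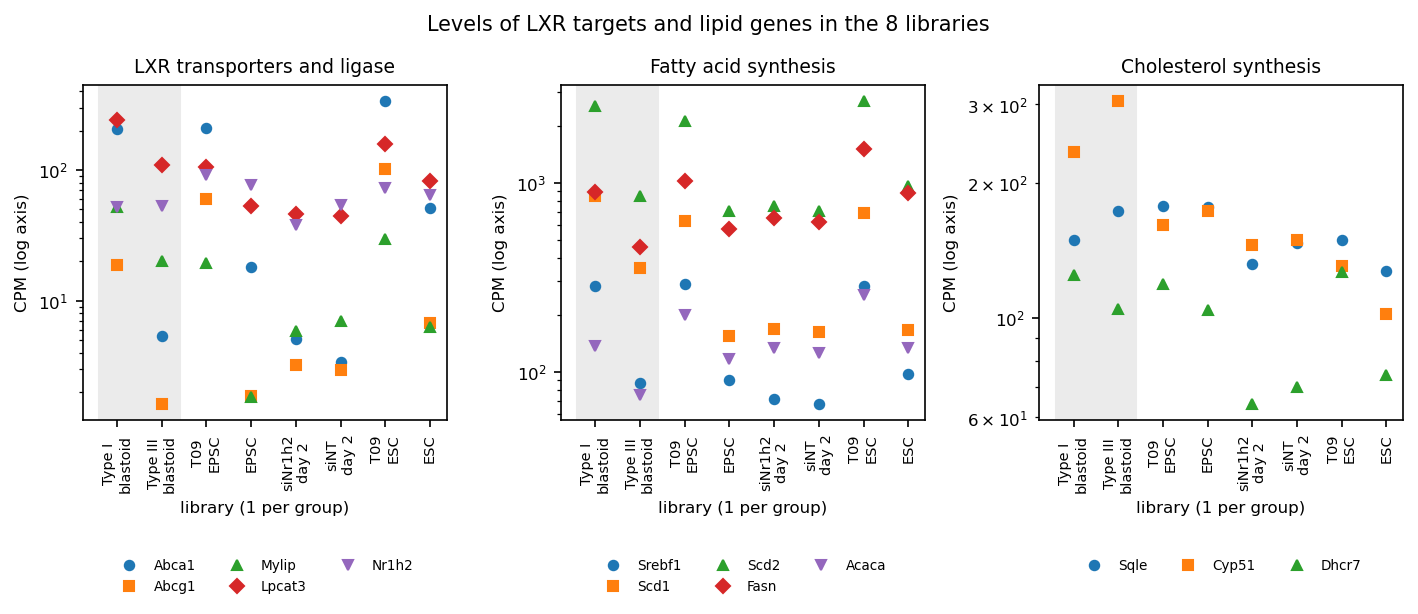
TMM-scaled CPM (y axis, log scale, different range in each panel) of LXR targets, fatty acid genes and cholesterol genes in each of the 8 libraries (x axis, 1 library per group, both day 5 blastoids shaded). Abca1, Abcg1, Srebf1, Scd1 and Scd2 are higher in Type I than in Type III and in each T09-treated culture than in its untreated one, whereas the cholesterol genes Sqle, Cyp51 and Dhcr7 were not called.

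Beyond the targets, fatty acid synthesis genes leaned the same way and cholesterol synthesis genes did not. Of 26 fatty acid synthesis genes tested, 20 were above 0, with a median of 0.36. The 3 called higher were Srebf1, Scd1 and Scd2, which are LXR targets as well, and the 1 called lower was the desaturase gene Scd3 (0.752 CPM in Type I and 1.64 CPM in Type III, log2 -1.07). Scd3 rested on 27 counts in Type I and 54 in Type III, lost its call with a prior count of 10 (-0.89), and its reads may be shared with Scd1 and Scd2, which are close to it in sequence. In culture Scd3 was called higher with T09, at 4.92 CPM in T09-treated EPSC and 0.786 CPM in EPSC (2.57) and at 2.32 CPM in T09-treated ESC and 0.784 CPM in ESC, the direction opposite to that between the blastoid types. Fasn, the fatty acid synthase gene, had 894 CPM in Type I and 458 CPM in Type III (log2 0.96, interval 0.94 to 0.99), and Acaca, which makes malonyl-CoA for it, 137 CPM in Type I and 75.4 CPM in Type III (0.87). Both lay just under the threshold. Cholesterol synthesis and uptake genes, which answer mainly to Srebf2, gave 0 calls of 28, 12 above 0 and a median of -0.09. Among them the methylsterol oxidase gene Msmo1 was at -0.76 and the sterol sensor gene Scap at 0.61. Of 25 genes of fatty acid use and lipid storage, 1 was called higher, Lpl, and 3 lower, among them the carnitine palmitoyltransferase gene Cpt1a (3.18 CPM in Type I and 6.87 CPM in Type III, -1.10) and the lipase inhibitor gene Angptl4 (-1.01), which lost its call with size factors of the DESeq2 type (-0.97) or a prior count of 10 (-0.93).

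The T09 comparisons in culture share no library with Type I over Type III, so their calls can be set beside it. Of 127 genes higher in Type I among those tested in both, 9 were also higher in T09-treated EPSC over EPSC (7.09%), which is 10.5% of the 86 genes higher there. Over all genes tested in each T09 comparison, a larger set than those tested in both, 0.895% were higher in T09-treated EPSC and 1.39% in T09-treated ESC. For T09-treated ESC over ESC the shared genes were 13, or 11.3% of 115 higher in Type I and 9.35% of 139 higher with T09. Genes lower in Type I and lower with T09 numbered 37 for EPSC, 6.05% of 612 lower in Type I and 12.1% of 305 lower with T09. For ESC they numbered 41, 6.69% of 613 and 19.3% of 212. Of the 12737 genes tested in both for EPSC, 127 were higher and 612 lower in Type I, and 86 were higher and 305 lower with T09. Of the 12630 genes tested in both for ESC, 115 were higher and 613 lower in Type I, and 139 were higher and 212 lower with T09. The shares above are to be read beside these counts. Over all genes tested for Type I over Type III, a larger set, 5.75% were lower and 1.93% higher. The background was thus unlike for the 2 directions. Abca1, Abcg1, Mylip, Scd1, Scd2 and Srebf1 were higher in all 3 comparisons. Taken over all genes higher with T09, the median log2 ratio of Type I over Type III was -0.04 for EPSC and -0.09 for ESC.

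Genes of the naive epiblast stood lower in Type I. Of 29 such genes, all of them tested, 0 were called higher and 19 lower, and the median log2 ratio was -1.12. Pou5f1, the factor that pluripotency depends on, had 159.8 CPM in Type I and 336 CPM in Type III (log2 -1.07, interval -1.12 to -1.03). Nanog, which stabilises naive pluripotency, had 33.9 CPM in Type I and 99.5 CPM in Type III (-1.55), and Sox2, the partner of Pou5f1 on DNA, 22.9 CPM in Type I and 62.2 CPM in Type III (-1.44). All 3 were below the cultures they came from, with Pou5f1 at 1344 CPM, Nanog at 623 CPM and Sox2 at 449 CPM in T09-treated EPSC. The call of Pou5f1 was lost with ratios centred by transcript length (-0.90) or by length and GC content (-0.99). All 3 genes were also below the siNT day 2 blastoids, which held 993, 176 and 267 CPM of these genes.

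The largest differences of this group were in Spp1, which encodes osteopontin (1.37 CPM in Type I and 9.61 CPM in Type III, log2 -2.76), and Tcl1, a cofactor of the kinase Akt (1.28 CPM in Type I and 7.67 CPM in Type III, -2.53). They were followed by the nuclear receptor gene Nr0b1 (-2.23) and by Tdgf1, the Nodal co-receptor (66.0 CPM in Type I and 249 CPM in Type III, -1.91). Esrrb, a nuclear receptor of the naive network, had 13.1 CPM in Type I and 35.2 CPM in Type III (-1.42), Dppa5a 201 CPM in Type I and 635 CPM in Type III (-1.66) and Zfp42, the naive marker Rex1, 64.9 CPM in Type I and 131 CPM in Type III (-1.01). The call of Zfp42 was lost with size factors of the DESeq2 type (-0.97) and with ratios centred by transcript length (-0.94) or by length and GC content (-0.83). Fgf4, the ligand by which epiblast cells signal to primitive endoderm and trophectoderm, had 9.72 CPM in Type I and 28.0 CPM in Type III (-1.52). The group did not move as 1 block. Klf4 had 133 CPM in Type I and 96.7 CPM in Type III (0.46), and Klf5 (0.13), Tfcp2l1 (0.17), Tbx3 (0.41) and Sall4 (0.59) were likewise above 0. Tbx3 and Sall4 are also used in primitive endoderm, and Klf5 in trophectoderm. Summed over the list, Type I held 1636 CPM and Type III 2760 CPM.

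Later epiblast genes and genes that pluripotent cells share with germ cells followed, in part. Of 20 formative and early epiblast genes, 6 were called lower and 0 higher (median -0.49), among them Otx2, which starts the exit from naive pluripotency (9.25 CPM in Type I and 23.8 CPM in Type III, -1.36), the growth factor gene Fgf5 (-1.63) and the methylation cofactor gene Dnmt3l (38.6 CPM in Type I and 80.9 CPM in Type III, -1.07, or -0.99 and not called with ratios centred by transcript length). Sox3 was at 0.91, on the other side. Of 22 germline genes, 13 were called lower (median -1.28), such as the RNA-binding Dazl (0.919 CPM in Type I and 4.38 CPM in Type III, -2.18) and Piwil2 of the piRNA pathway (1.42 CPM in Type I and 5.63 CPM in Type III, -1.94). Among the 17 germline genes with at least 100 counts, 10 were called lower. Of 13 genes of the 2-cell-like state, in which a few cultured cells switch on genes of the 2-cell embryo, 7 were called lower and 0 were above 0 (median -1.07). Zscan4c had 2.01 CPM in Type I and 7.64 CPM in Type III (-1.90), but the Zscan4 copies are near-identical and the split of their reads is uncertain. Most of these members were sparse in both libraries.

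Mesoderm genes leaned the same way. Of 22 mesoderm and gastrulation genes, 7 were called lower and 0 higher (median -0.88), against 4 lower with ratios centred by transcript length and 3 among members with at least 100 counts. T, the mesoderm factor brachyury, had 24.7 CPM in Type I and 46.5 CPM in Type III (-0.91, not called), against 0.346 CPM in T09-treated EPSC and 10.1 CPM in siNT. Msgn1, a factor of presomitic mesoderm, had 1.48 CPM in Type I and 3.41 CPM in Type III (-1.17), and Kdr, the VEGF receptor of endothelial precursors, 1.62 CPM in Type I and 3.41 CPM in Type III (-1.05). Msgn1 lost its call with ratios centred by transcript length (-0.82), and Kdr with a prior count of 10 (-0.96). Both blastoid types held more T than the siNT blastoids. Of 31 genes of BMP and Nodal signalling, 8 were called lower and 0 higher (median -0.19), against 5.75% lower over all genes. Among the 27 members with at least 100 counts, 5 were called lower. The furthest was the Nodal inhibitor Lefty2 with 0.502 CPM in Type I and 4.44 CPM in Type III (-3.01, interval -3.94 to -2.44). Among 10 FGF ligands tested, 4 were called lower, Fgf4, Fgf5, Fgf7 and Fgf15.

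Primitive endoderm factors mostly lay above 0, each by less than 2-fold. Of 15 tested, 0 were called in either direction and 13 were above 0, with a median of 0.49. With ratios centred by transcript length and GC content the median was 0.33. Gata4 had 523 CPM in Type I and 372 CPM in Type III (log2 0.49, interval 0.46 to 0.53), against 106 CPM in siNr1h2, 109.6 CPM in siNT and 3.71 CPM in T09-treated EPSC. Gata6, which starts the lineage, had 87.2 CPM in Type I and 69.9 CPM in Type III (0.32), Sox17 208 CPM in Type I and 152 CPM in Type III (0.45), and Foxa2, a pioneer factor of endoderm, 65.1 CPM in Type I and 38.2 CPM in Type III (0.77). Hnf4a, a factor of the visceral endoderm, stood at 0.54. Pdgfra, the receptor that marks the lineage, had 524 CPM in Type I and 344 CPM in Type III (0.61). Among the endocytic receptors and their adaptor, Dab2 was at 0.46, Cubn at 0.26 and Lrp2 at 0.04. Among 23 receptor and surface genes of this lineage, 1 was called higher, Col4a1, and 1 lower, the BMP modulator gene Bmper (0.697 CPM in Type I and 2.92 CPM in Type III, -1.98).

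Basement membrane genes showed the same lean on high counts. Of 26, all tested, 25 were above 0, the median was 0.53, and 2 were called higher and 0 lower. Col4a1, a chain of type IV collagen, had 15509.6 CPM in Type I and 7700.0 CPM in Type III, on 556656 counts in Type I and 253126 in Type III. It was at 943 CPM in siNr1h2, 992 CPM in siNT and 202 CPM in T09-treated EPSC. Its log2 ratio of 1.01 (interval 1.00 to 1.02) sat on the threshold. Col4a2, its partner chain from the shared promoter region, had 7489.9 CPM in Type I and 3465 CPM in Type III (1.11, interval 1.10 to 1.12). Laminin chains kept close to one another, with Lama1 at 0.68, Lamb1 at 0.66 and Lamc1 at 0.67. The matrix glycoprotein genes Fn1 and Sparc stood at 0.78 and 0.58, and Serpinh1, the collagen chaperone, at 0.57. P4ha2, a collagen prolyl hydroxylase, was the member below 0 (-0.26). In sum, the list took 43777 CPM of Type I and 25235 CPM of Type III. The genes of this list have long transcripts, a median of 5646 bases, and with ratios centred by transcript length its median was 0.42 and 0 members were called, with Col4a1 at 0.87 and Col4a2 at 0.97. Col4a1 was also just under 2-fold with upper-quartile factors (0.96). With length and GC content both centred, the list median was 0.37.

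Yolk sac endoderm has a parietal and a visceral branch, and markers of both were present. Of 23 parietal endoderm genes, 3 were called higher, Col4a1, Col4a2 and Plat, and 1 lower, Krt19, with a median of 0.58. With ratios centred by transcript length, 1 was called higher and 0 lower. With length and GC content centred, 1 was called higher and 1 lower, around a median of 0.41. Plat, the tissue plasminogen activator gene, had 104 CPM in Type I and 45.5 CPM in Type III (1.19, interval 1.10 to 1.28), against 1.93 CPM or less in each of the other 6 libraries. Thbd, another defining marker of the parietal branch, had 4 counts in each library. Visceral endoderm genes gave 0 higher and 1 lower of 29, the Nodal inhibitor gene Lefty1 (0.362 CPM in Type I and 1.22 CPM in Type III, -1.60), and a median of 0.26. Ttr, the thyroxine carrier, was level at 176 CPM in Type I and 174 CPM in Type III, Apoa1 stood at -0.27, Afp at 0.56 and Ihh, the hedgehog ligand, at 0.76 (124 CPM in Type I and 73.3 CPM in Type III).

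**Figure D3:**
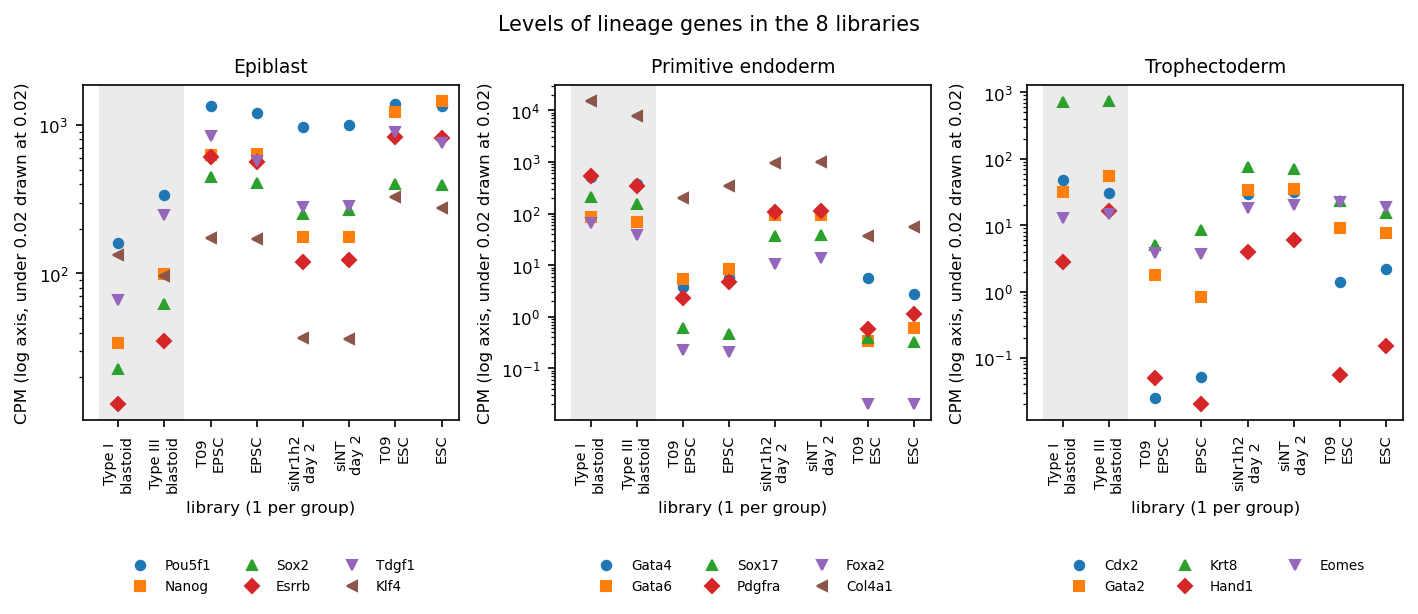
TMM-scaled CPM (y axis, log scale, different range in each panel, values under 0.02 drawn at 0.02) of epiblast, primitive endoderm and trophectoderm genes in each of the 8 libraries (x axis, both day 5 blastoids shaded). Pou5f1, Nanog, Sox2, Esrrb and Tdgf1 are lower in Type I than in Type III, the primitive endoderm genes lie somewhat higher, with Col4a1 called, and among trophectoderm genes Krt8 is level (717 CPM in Type I and 754 CPM in Type III) while Hand1 is lower (2.81 CPM in Type I and 16.3 CPM in Type III).

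Trophectoderm genes did not move together. Of 19 factors tested, 1 was called higher and 3 lower, with a median of -0.04. Cdx2, which founds the lineage, had 48.2 CPM in Type I and 30.9 CPM in Type III (0.64, interval 0.53 to 0.75). Gata2 (31.7 CPM in Type I and 55.6 CPM in Type III, -0.81), Gata3 (2.51 CPM in Type I and 4.59 CPM in Type III, -0.86) and Tfap2c (19.5 CPM in Type I and 28.1 CPM in Type III, -0.53) were on the other side of 0, and Eomes, of the polar trophectoderm, was at -0.18. Hand1, needed for trophoblast giant cells and also expressed in extraembryonic mesoderm, had 2.81 CPM in Type I and 16.3 CPM in Type III (-2.51, interval -2.85 to -2.22). It was at 5.89 CPM in siNT and at 0.0494 CPM in T09-treated EPSC, below the floor of detection. The other factors called lower were the placental homeobox gene Esx1 (-1.25) and the epithelial factor Grhl1 (-1.04), and Dlx5 was called higher on 35 counts in Type I and 15 in Type III. Grhl1 and Dlx5 lost their calls with a prior count of 10 (-0.97 and 0.76).

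The epithelial side of the trophectoderm was split. Krt8 had 717 CPM in Type I and 754 CPM in Type III (-0.07), and its partner Krt18 553 CPM in Type I and 648 CPM in Type III (-0.23), against 71.1 CPM of Krt8 in siNT and 5.11 CPM in T09-treated EPSC. Krt8 and Krt18 thus stood at similar levels in both blastoid types, and bulk RNA does not show which cells held them. Of 30 epithelial genes, 0 were called higher and 7 lower, with a median of 0.12. The lower ones included Ptges, a prostaglandin E synthase gene (0.334 CPM in Type I and 2.62 CPM in Type III, -2.77), Ly6a, the galectin genes Lgals3 (-1.68) and Lgals1 (-1.11), and the keratin genes Krt7 (-1.05) and Krt19 (-1.03). With ratios centred by transcript length, 5 were called lower: Lgals1 lost its call (-0.76) and so did Krt19 (-0.92), which also lost it with size factors of the DESeq2 type (-0.99). The junction genes Cldn6 (937 CPM in Type I and 702 CPM in Type III, 0.42) and Ocln (0.49) were above 0 and not called. Cldn4 was at -0.96.

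Placental genes were partly counted. Of 35 matched placental trophoblast genes, 17 were tested, 0 were called higher and 5 lower (median -0.36): Mmp9, Pparg, Rhox9, Synb and Ascl2. The call of Ascl2 was lost with size factors of the DESeq2 type (-0.98), a prior count of 10 (-0.95) or ratios centred by transcript length (-0.91). The list summed to 2834 CPM in Type I and 3672 CPM in Type III, beside 2874 CPM in siNT and 263 CPM in T09-treated EPSC. Pparg, a nuclear receptor needed in the placenta, had 1.81 CPM in Type I and 6.02 CPM in Type III (-1.70), against 0.178 CPM in siNT. Synb, the syncytin gene of the second syncytiotrophoblast layer, had 1.56 CPM in Type I and 4.17 CPM in Type III (-1.38) and was listed at 0 in T09-treated EPSC and siNT. Flt1, a VEGF receptor gene, was at 0.78 (340.0 CPM in Type I and 198 CPM in Type III). Prl3d1 and Tpbpa, which define giant cells and spongiotrophoblast, had 0 counts in both libraries, as had all 26 prolactin family genes, and Elf5, of trophoblast stem cells, had 7 counts in Type I and 13 in Type III.

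**Figure D4:**
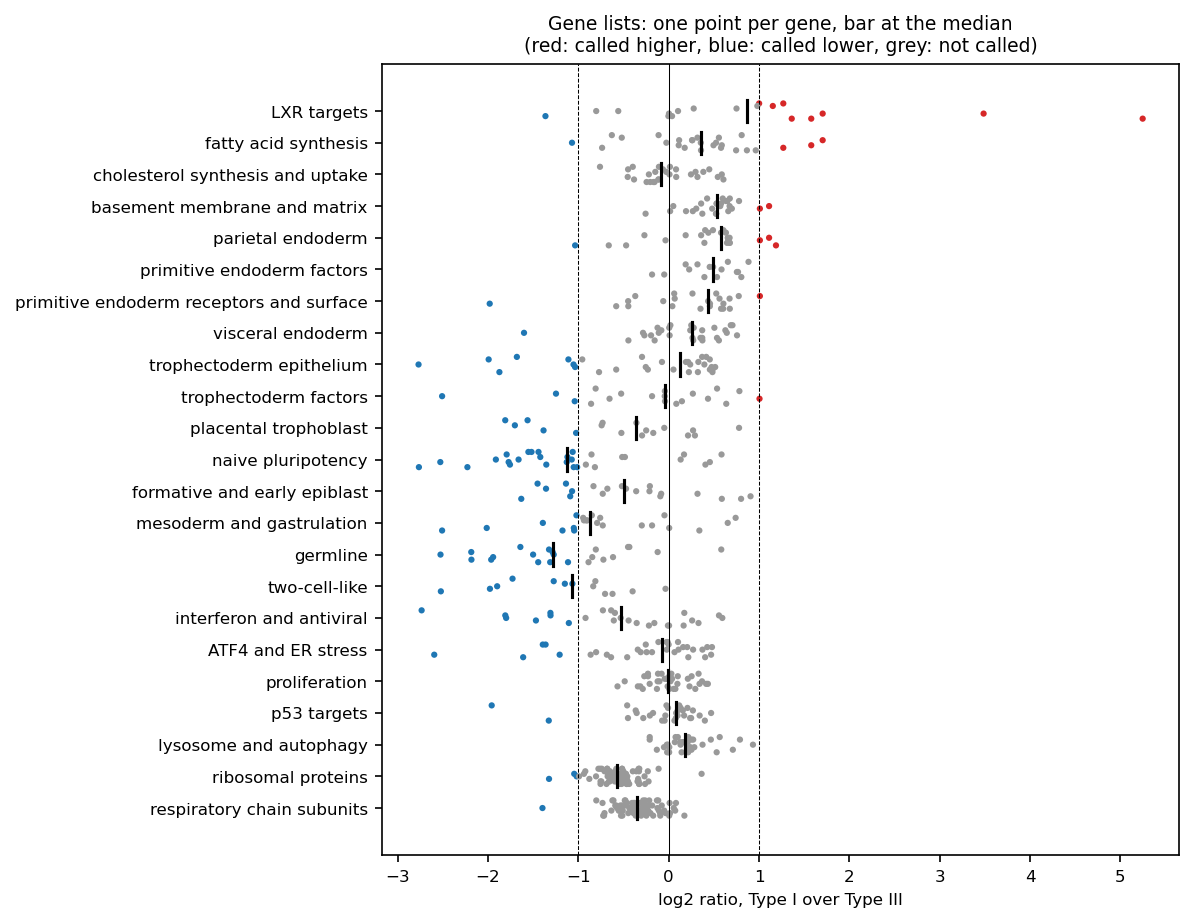
Log2 ratio of Type I over Type III (x axis) for every tested member of 23 gene lists (rows), red where called higher, blue where called lower and grey where not called, with a bar at each median and dashed lines at 2-fold. LXR targets carry the largest positive ratios around a median of 0.87, naive pluripotency and germline genes have medians of -1.12 and -1.28, and the ribosomal protein genes lie in a narrow band around -0.57.

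Among markers of cell types outside the blastocyst, a few genes differed. The embryonic globin gene Hba-x had 13.7 CPM in Type I and 3.98 CPM in Type III (1.77), on 493 counts in Type I and 131 in Type III, and Hbb-bh1 was at 0.91, on 747 counts in Type I and 363 in Type III. In the other 6 libraries Hba-x was at 0.152 CPM or less and Hbb-bh1 had 0 counts. Of 13 blood, endothelial and immune genes tested, 3 were called higher, Hba-x, Hbb-y and the erythroid factor gene Klf1, and 0 lower. Hbb-y rested on 86 counts in Type I and 29 in Type III. Klf1 rested on 54 counts in Type I and 20 in Type III, and lost its call with a prior count of 10. Among the 6 members with at least 100 counts, 1 was called. The list had 10 genes above 0 and 3 below, among them Cdh5 with 3.26 CPM in Type I and 5.14 CPM in Type III (-0.65, not called). Ptprc, the pan-leukocyte marker, had 0 counts in both libraries. Of 17 neuroectoderm genes, 2 were called higher, among them Sox1 (2.40 CPM in Type I and 0.730 CPM in Type III, 1.64), and 1 lower, Stmn2 (15.9 CPM in Type I and 39.3 CPM in Type III, -1.30). Of 15 fibroblast and mesenchyme genes, 0 were called higher and 2 lower, Acta2 and Thy1. Their part in the differences above was not tested.

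Among named genes with at least 50 counts, the one furthest below 0 by its interval was S100a6. It encodes a calcium-binding protein and had 0.306 CPM in Type I and 6.54 CPM in Type III (log2 -4.18, interval -5.44 to -3.55), against 1.36 to 5.21 CPM in the other 6 libraries, so Type I stood apart from all of them. The membrane-binding annexin genes Anxa1 (2.15 CPM in Type I and 12.4 CPM in Type III, -2.50), Anxa3 (-1.53) and Anxa2 (35.9 CPM in Type I and 102 CPM in Type III, -1.50) were called lower too. Of 18 S100 and annexin genes tested, these 4 were called lower and 0 higher, around a median of -0.40, or -0.13 with ratios centred by transcript length, and Anxa6 was at 0.56. Nupr1, a stress-response gene, stood at 0.752 CPM in Type I and 4.84 CPM in Type III (-2.59). Ctla2a, a cysteine protease inhibitor, had 0.362 CPM in Type I and 4.02 CPM in Type III (-3.28) and Serpinb9e 0.111 CPM in Type I and 1.95 CPM in Type III (-3.56). At the higher end, after Abca1 and Abcg1, came the semaphorin gene Sema3d (2.56 CPM in Type I and 0.335 CPM in Type III, 2.74), Adcy8, an adenylyl cyclase (2.61), Pax5 (2.55) and Trp63, the epithelial p63 (2.34 CPM in Type I and 0.395 CPM in Type III, 2.40). These rested on few counts, at most 93 in Type I. On firmer counts were the semaphorin and VEGF co-receptor gene Nrp1 (66.5 CPM in Type I and 26.1 CPM in Type III, 1.34), the myosin gene Myh7 (18.2 CPM in Type I and 5.29 CPM in Type III, 1.77) and the ligand gene Wnt6 (11.5 CPM in Type I and 4.26 CPM in Type III, 1.41).

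Of 36 proliferation genes, 0 were called and the median was -0.00. P53 targets gave 0 higher and 2 lower of 31, Fas and Gdf15, and hypoxia and glycolysis genes 0 higher and 2 lower of 32, Pfkp and Egln3. Both lists lay near the share over all genes, 5.75% lower, and among p53 targets with at least 100 counts 0 were called. ATF4 and ER stress genes gave 0 higher and 5 lower of 32, Nupr1, Chac1, Cebpb, Slc7a3 and Ddit3, around a median of -0.07. Interferon and antiviral genes gave 0 higher and 7 lower of 25 (median -0.53), among them the immunoproteasome subunit gene Psmb8 (0.836 CPM in Type I and 3.07 CPM in Type III, -1.81) and the factor gene Irf1 (9.95 CPM in Type I and 24.7 CPM in Type III, -1.31), while the class I gene H2-D1 was at 0.59. With ratios centred by transcript length, 6 interferon and antiviral genes were called lower around a median of -0.29, and in the ATF4 list Ddit3 lost its call (-0.86). Among the 18 interferon and antiviral genes with at least 100 counts, 5 were called lower. Lysosome and autophagy genes gave 0 calls of 36, 29 above 0 and a median of 0.19, with the lysosomal lipase gene Lipa at 0.79 and the glycogen-degrading Gaa at 0.71. Imprinted genes gave 0 higher and 2 lower of 40, again near the share over all genes, with H19 at -0.25 and Peg3 at 0.58.

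Ribosomal protein genes lay below 0 as a block. Of 77 tested, 76 were below 0, the median was -0.57 and 3 were called lower, Rps21 (398 CPM in Type I and 807 CPM in Type III, -1.02), Rpl38 (298 CPM in Type I and 614 CPM in Type III, -1.04) and Rpl10l. The list summed to 80461 CPM in Type I and 116827 CPM in Type III, and ran from 71273 to 82471 CPM in the other 6 libraries, so Type III was the one apart. Respiratory chain subunits (median -0.35 over 75) and proteasome subunits (median -0.25 over 38, 4 called lower) leaned the same way, but with ratios centred by transcript length their medians were -0.11 and -0.12. The members of these lists have short transcripts, with medians of 1059, 1046 and 1895 bases. Over all genes, the median ratio was -0.41 for genes whose longest transcript has up to 500 bases, -0.16 for 1000 to 1500 bases and 0.14 above 6000 bases, and from the lowest to the highest eighth of GC content the medians run between -0.16 and 0.12. With ratios centred by transcript length the ribosomal median was -0.36 with 0 called, the naive pluripotency group had 15 called lower with a median of -1.02, and 7 LXR targets were called higher with a median of 0.87. With GC content centred as well, these counts were 0, 14 and 8.

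**Figure D5:**
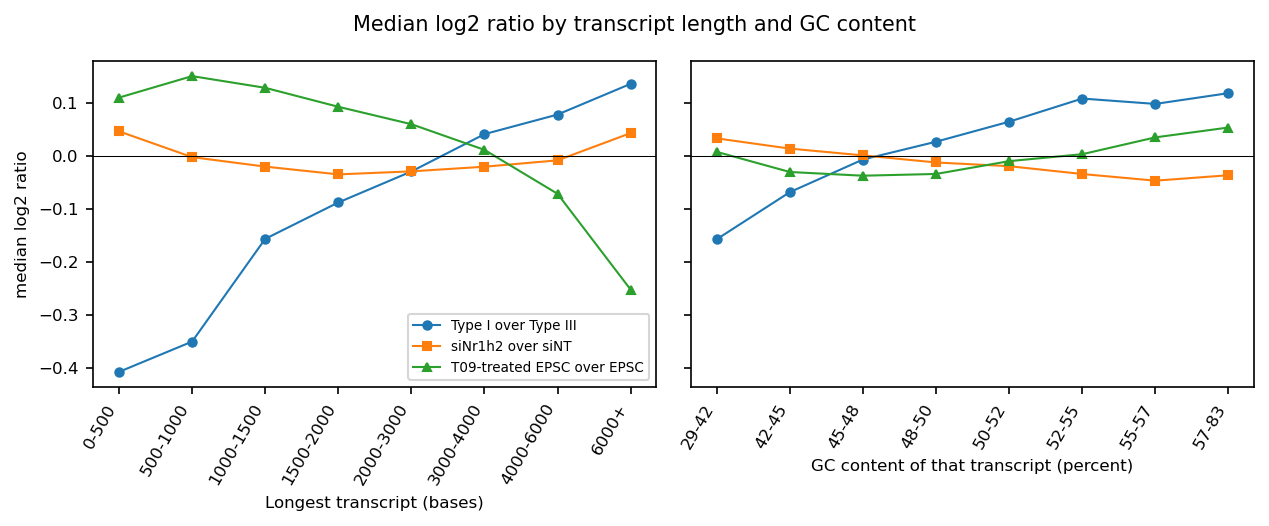
Median log2 ratio (y axis) of genes in 8 bins of longest-transcript length in bases (left) and of that transcript's GC content in percent (right), for Type I over Type III, siNr1h2 over siNT and T09-treated EPSC over EPSC. For Type I over Type III the median goes up with length from -0.41 to 0.14 and with GC content from -0.16 to 0.12, while for siNr1h2 over siNT it stays between -0.05 and 0.05 and for T09-treated EPSC over EPSC it lies at 0.11 in the shortest and -0.25 in the longest bin.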

How the data were processed

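RNA-seq of 8 mouse libraries was used, of which the Type I and Type III day 5 blastoids are compared here. The authors deposited unnormalized counts for 24888 gene symbols, made with STAR, HTSeq and Cuffnorm on build mm9 per the submitters' processing notes, which give no versions, annotation or strand setting. Reads of near-identical copies and of overlapping genes may be divided in ways that were not stated. Per the labels, total RNA was made into directional libraries. Groups came from the sample labels, with 1 library each.

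Counts were scaled by TMM (edgeR 4.0.16, R 4.3.3) over 8 libraries. Log2 ratios used a prior count of 2 and 95% exact Clopper-Pearson intervals (SciPy 1.17.1), which cover counting error only, since PCR copies were not told apart. Transcript lengths were those of the reference annotation, found for 99.3% of tested genes. Counts were simulated for 13721 genes with counting noise only. The 200 genes changed were expected to hold at least 50 counts in each library before the change. On these counts the rule recovered 100% of 4-fold and 99.0% of 2.5-fold changes, with 17 false calls. Spread between cultures was not simulated, so these figures give no error rate for the 1068 genes called.

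The members, the 37 gene lists and the 19 symbol families were chosen with earlier results of these data known. Genes named were the 20 higher and 20 lower with at least 50 counts whose interval bound lay furthest from 0, without predicted genes, up to 6 called members per list and direction, the extremes of each list, a set of cell type markers, and Nr1h2, Nr1h3, Abca1, Abcg1 and Srebf1. Further list members and the genes described under other observations were picked after their values were seen. Lists share members. Of 1029 listed genes, 8 matched no symbol and were not analysed here, and some genes are not reported here. Alternatives were other scalings, count minimums, fold thresholds, prior counts, a wider interval, and centring by transcript length and GC content, the last chosen after seeing the data.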

Additional observations from a re-analysis of the deposited data

How the results depend on the processing

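The count of genes different between Type I and Type III, 1068 as reported, was 1761 with no count minimum, 600 with at least 50 counts and 355 with at least 100 counts, and 2307 at 1.5-fold and 153 at 4-fold. Those called higher, 268 as reported, numbered 437, 135, 79, 833 and 25 under these settings in turn, and 151 with a prior count of 10. Those called lower, 800 as reported, numbered 1324, 465, 276, 1474 and 128. Other scalings moved the median of all genes by at most 0.05 and gave 1036 to 1088 calls, with 22.0% to 28.1% of them higher against 25.1% as reported. Of 194 named genes called, 9 lost their call with size factors of the DESeq2 type, 1 with library totals, 4 with upper-quartile factors, 25 with a prior count of 10, 26 with ratios centred by transcript length and 21 with length and GC content. None of these ratios reversed under the alternatives computed for single genes. That is no support for them, since a gene called at 2-fold or more reverses only under a shift larger than its ratio. No paired analysis was possible because each group has 1 library and the comparison has no test. No replicate could be left out. Of genes with 20 to 100 counts 29.2% were called, against 0.866% of those with 1000 to 10000 counts, and the cause was not tested. Culture-to-culture spread is not measured.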

Other observations

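Some genes outside the lists above also differed, and they are named here after their values were seen. The hypoxia-inducible factor gene Epas1 had 351 CPM in Type I and 175 CPM in Type III (log2 1.00), the carboxypeptidase gene Cpm 315 CPM in Type I and 143 CPM in Type III (1.14) and the cadherin gene Cdh6 168 CPM in Type I and 72.6 CPM in Type III (1.21). In T09-treated EPSC, Cpm was at 1.16 CPM and Cdh6 at 0.247 CPM. Nfkb1, a subunit of NF-kappa B, had 82.0 CPM in Type I and 40.1 CPM in Type III (1.03), and Foxa1, a relative of Foxa2, 4.18 CPM in Type I and 1.58 CPM in Type III (1.37). Epas1 and Nfkb1 lay close to the 2-fold threshold, beside a median shift of -0.045 in all ratios with upper-quartile factors. On the lower side, the transferrin receptor gene Tfrc had 123 CPM in Type I and 280 CPM in Type III (-1.19), and the thyrotropin-releasing hormone gene Trh 46.7 CPM in Type I and 170.4 CPM in Type III (-1.87).

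Of 337 zinc finger genes with a Zfp symbol, 2 were called higher and 14 lower, around a median of -0.02. Over all genes 1.93% were higher and 5.75% lower, and neither share of this family lay above these. Zfp980 had 25.5 CPM in Type I and 64.2 CPM in Type III (-1.33) and Zfp600 7.19 CPM in Type I and 22.2 CPM in Type III (-1.62), while T09-treated EPSC held 194 CPM of Zfp980 and 143 CPM of Zfp600. These genes belong to clusters of near-identical copies, so the split of their reads is uncertain. Of 22 replication-dependent histone genes tested, 1 was called higher and 12 lower, with a median of -1.13. These transcripts are short, with a median of 667 bases. With ratios centred by transcript length, 1 histone gene was called higher and 10 lower, around a median of -0.81. Among the 2 members with at least 100 counts 0 were called and the median was 0.33. By chromosome, median ratios ran from -0.06 on X to 0.06 on 15, apart from -0.32 over 6 genes on Y.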
